A study of Mus musculus with 16 samples.

Results

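Collagens are proteins of the extracellular matrix that are built from 3 chains wound around each other, and each chain has a gene of its own. The array named 44 collagen chain genes among 30214 gene names, chosen here by a name made of Col, a type number, the letter a and a chain number. Their mRNAs were measured in AML12 cells, a non-tumourigenic line of mouse hepatocytes, by one-colour Agilent arrays that were hybridized with RNA from sucrose gradients. The gradient was divided into polysomal RNA, which sediments with several ribosomes, and subpolysomal RNA, which lies above it. The study asked which mRNAs depend for their translation on eIF6, a factor that keeps the large ribosomal subunit from joining the small one before initiation. There were 4 groups of 4 arrays. The cells of all 4 groups carried a lentiviral shRNA that doxycycline switches on, a scramble shRNA in 2 groups and an eIF6 shRNA in the other two, and all had been given doxycycline and then 100 nM insulin for 1 h (one field of the labels writes mM). For each shRNA, 1 group was polysomal RNA and 1 was subpolysomal RNA. The methods call the 4 arrays of a group biological replicates, and whether they come from separate infections, and which of the eIF6 shRNA sequences listed there these cells carried, is not given in the sources used here. The loss of eIF6 and any other effect of the shRNA sequence cannot be told apart.

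Of the 44 genes, 30 passed a detection filter, which asks for 1 probe well above background on 2 or more arrays within a group, and were tested among 19367 genes in all. They were measured by 38 probes, and 24 of them by 1 probe each. The other 14 are named with their type below. On the log2 scale, the arrays of a group had correlations of 0.988 to 0.995 with each other over all tested genes, and 20196 to 24960 probes of an array were well above background. Eif6 itself checks the shRNA labels of the polysomal arrays, but not those of the subpolysomal arrays. Its log2 signal on polysomes was 12.95 ± 0.011 on the 4 scramble arrays (mean ± SD) and 11.89 ± 0.084 on the 4 eIF6 shRNA arrays, a difference of -1.05 (SE 0.079; limma, adjusted p = 1.45e-07), while in subpolysomal RNA the difference was 0.015 (adjusted p = 0.915). Of 12 hepatocyte markers, 11 were tested and 9 were well above background on all 16 arrays, among them the transcription factor Hnf4a, the keratins Krt8 and Krt18 and the secreted proteins Ttr, Apob, Serpina1a and Afp. Alb was well above background on 7 of 16 arrays, Apoa1 on 3 and Fgb on 0. Markers of stellate cells and fibroblasts were also present, as described beside the results.

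Fibril-forming collagens such as types I, III and V assemble into the banded fibrils of scar and connective tissue, in which type I carries most of the mass and type V sits at the core. Type IV forms the sheet of basement membranes, type VI forms beaded filaments between cells and fibrils, and the fibril-associated collagens (types IX, XII, XIV, XVI and XX among others) attach to the surface of fibrils. Types XV and XVIII lie in basement membrane zones, and a few types, among them XXIII and XXV, span the cell membrane. In liver, fibrillar collagen is made mostly by activated stellate cells and fibroblasts, and hepatocytes in culture can make some.

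Promoter sequence was set beside the measurements because many of the chain mRNAs moved together in both fractions. RefSeq's table for GRCm38.p6 held a window for 35 of the 44 genes, and 9 had none. The 250 bases before the annotated start are shown, 5′ to 3′ on the strand of the gene, for 4 chains that were lower in eIF6 shRNA cells and for both chains that were higher on polysomes. The windows lie at chr6:4505368-4505617 (plus strand, Col1a2), chr1:45311288-45311537 (plus, Col3a1), chr2:27886175-27886424 (plus, Col5a1), chr1:90843972-90844221 (minus, Col6a3), chr4:47207762-47208011 (plus, Col15a1) and chr4:63215162-63215411 (plus, Col27a1) of GRCm38.p6. Capitals mark matches to 3 motifs on either strand, which did not overlap each other in the windows shown. The TATA box was searched as TATAAA. For the CCAAT box the letters searched were those of its name. The GC box, which binds factors of the Sp family, was searched as GGGCGG.
Col1a2: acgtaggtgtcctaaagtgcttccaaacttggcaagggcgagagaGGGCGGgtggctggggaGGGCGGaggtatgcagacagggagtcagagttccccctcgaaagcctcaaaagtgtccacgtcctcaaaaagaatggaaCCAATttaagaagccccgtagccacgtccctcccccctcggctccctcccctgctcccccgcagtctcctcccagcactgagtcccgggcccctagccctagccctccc
Col3a1: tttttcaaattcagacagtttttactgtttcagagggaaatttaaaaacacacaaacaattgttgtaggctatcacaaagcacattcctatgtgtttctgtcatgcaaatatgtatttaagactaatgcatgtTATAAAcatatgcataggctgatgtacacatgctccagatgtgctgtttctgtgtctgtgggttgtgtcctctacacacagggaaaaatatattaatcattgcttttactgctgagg
Col5a1: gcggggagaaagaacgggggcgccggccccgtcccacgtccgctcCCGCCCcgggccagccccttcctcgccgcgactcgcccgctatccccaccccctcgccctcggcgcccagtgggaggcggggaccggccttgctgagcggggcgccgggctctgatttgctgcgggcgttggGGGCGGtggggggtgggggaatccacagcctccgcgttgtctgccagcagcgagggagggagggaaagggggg
Col6a3: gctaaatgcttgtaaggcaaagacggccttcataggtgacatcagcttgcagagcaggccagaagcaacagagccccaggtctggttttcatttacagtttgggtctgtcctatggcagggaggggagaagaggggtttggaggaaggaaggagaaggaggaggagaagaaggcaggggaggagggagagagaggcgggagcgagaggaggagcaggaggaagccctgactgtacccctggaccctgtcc
Col15a1: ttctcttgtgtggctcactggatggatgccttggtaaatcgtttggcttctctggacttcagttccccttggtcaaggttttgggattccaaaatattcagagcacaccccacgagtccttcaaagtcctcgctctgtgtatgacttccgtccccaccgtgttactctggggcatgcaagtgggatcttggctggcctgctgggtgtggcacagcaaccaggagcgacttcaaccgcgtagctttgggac
Col27a1: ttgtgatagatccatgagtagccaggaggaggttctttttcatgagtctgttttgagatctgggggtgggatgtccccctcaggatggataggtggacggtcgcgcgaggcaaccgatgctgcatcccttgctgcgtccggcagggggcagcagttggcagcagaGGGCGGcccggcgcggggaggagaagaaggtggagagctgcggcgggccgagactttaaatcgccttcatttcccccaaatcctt

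Col1a2 carried 2 GC boxes and 1 CCAAT box, Col3a1 1 TATA box, Col5a1 2 GC boxes (1 on each strand) and Col27a1 1 GC box. The windows of Col6a3 and Col15a1 held none of these letters. The called chains thus shared no single one of the motifs. Among the 12 chains with a window that were lower on polysomes, 7 held a CCAAT box, 8 a GC box and 1 a TATA box. Among the 11 tested and not called chains with a window these numbers were 4, 8 and 1. Of all 32851 windows of the same length, 33.8% held a CCAAT box, 32.7% a GC box and 12.4% a TATA box. These matches describe the letters only. In the RefSeq gene table, 8 pairs of collagen chain genes are direct neighbours. Both members were tested in 4 of them, and in 3 of those both were lower on polysomes, namely Col3a1 with Col5a2 (24624 bases apart), Col6a2 with Col6a1 (85161 bases apart) and Col4a1 with Col4a2 (which overlap by 85 bases). Col4a6 and Col4a5, which lie 1274 bases apart, were not called.

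The polysomal change is the log2 signal of eIF6 shRNA arrays minus that of scramble arrays in polysomal RNA, relative to the other mRNAs on the arrays since the arrays were normalized to each other. Of the 30 tested collagen chain mRNAs, 15 were lower on the polysomes of eIF6 shRNA cells, 2 were higher and 13 did not pass an adjusted p of 0.05 in limma. These are 50% and 6.67% of the chains, against 10.7% of all tested genes lower and 11.1% higher. The collagen genes were chosen with earlier results of these data known, so such shares describe them and are no test. The median change of the 30 chains was -0.57, against 0.016 over all genes, and single chains ranged from -3.53 (Col1a2) to 0.76 (Col15a1). The 4 arrays of each group did not overlap for the 15 chains called lower, nor for 3 chains that lay higher, against 11.4% and 11.1% of all genes without overlap in each direction. Among the 20 chains measured well above background on all 16 arrays, 13 were lower and 1 was higher when the arrays were normalized on such probes alone, against 11.7% and 12.8% of the genes measured that way.

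In subpolysomal RNA, 14 chains were lower, 3 were higher and 13 did not pass, which is 46.7% and 10% of the chains against 12.3% and 11.8% of all genes. The median change was -0.42, against 0.025 over all genes. In all, 14 chains were lower in both fractions, and Col15a1 and Col27a1 were higher in both. The 14 include Col11a1, which was near background and whose subpolysomal decrease could not be bounded. Col16a1 was called, lower, on polysomes alone, and Col23a1, higher, in subpolysomal RNA alone. Another 12 chains were called in neither. Scaling to spike-in RNA in place of quantile normalization shifted the median of all genes by enough to change the split, to -0.48 on polysomes and -0.24 in subpolysomal RNA. On that scale 11 chains were lower and 0 higher on polysomes (median -1.10, against 5.39% and 0.506% of all genes called), and 9 were lower and 0 higher in subpolysomal RNA (median -0.71, against 1.79% and 0.201% of all genes). With slide as a block in the model, 16 chains were lower and 2 higher on polysomes and 15 and 4 in subpolysomal RNA, since Col4a5 and Col4a6 gained calls as given beside their values, and no other chain changed its call. With spike-in scaling, the lower calls lost on polysomes were those of Col4a1, Col4a2, Col7a1 and Col16a1. In subpolysomal RNA they were those of Col1a2, Col4a1, Col4a2, Col6a2 and Col7a1. All these values stayed below 0, and every chain called higher also lost its call with that scaling.

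**Figure D1:**
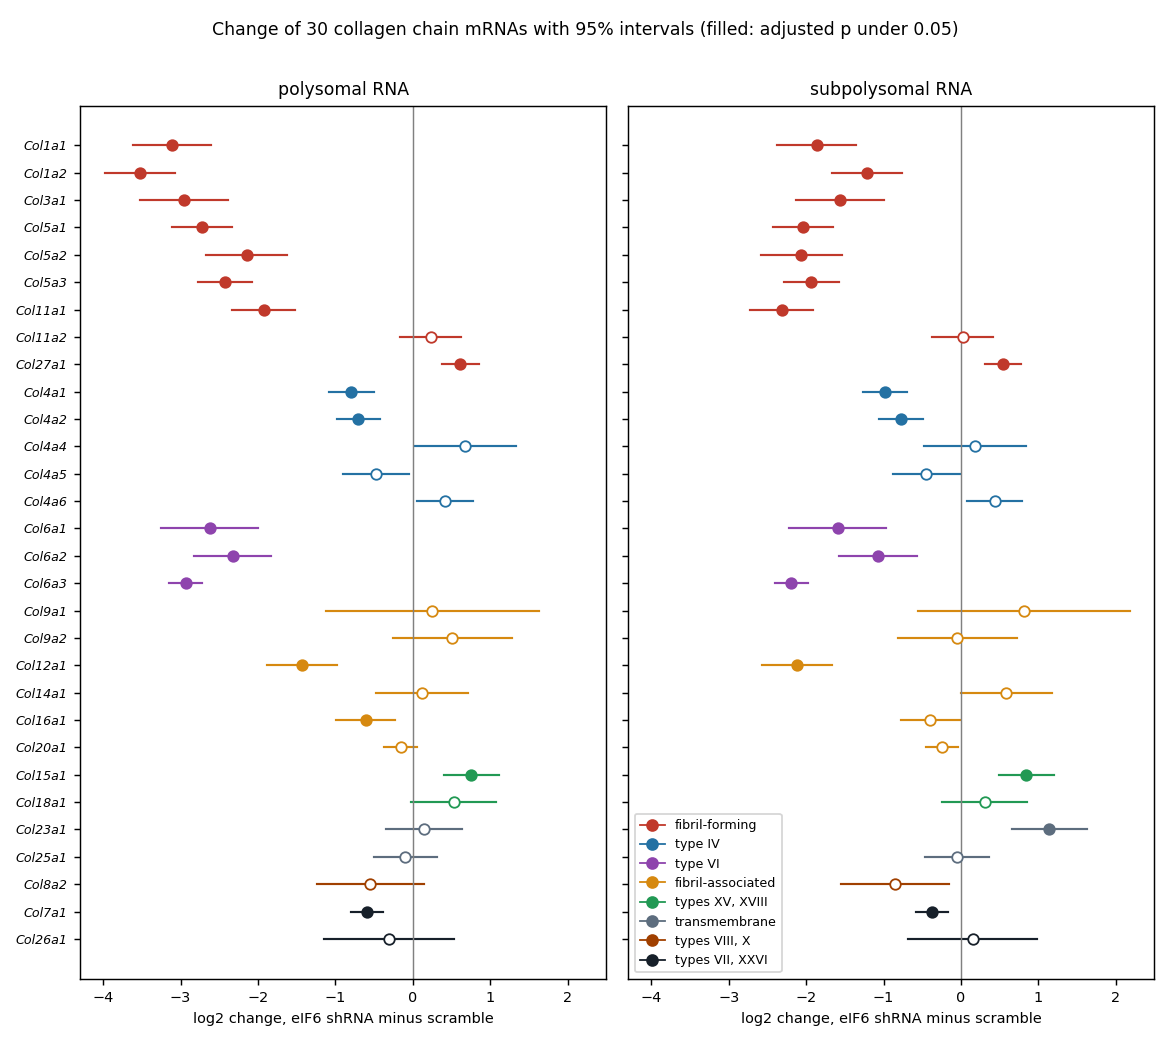
Change of the 30 tested collagen chain mRNAs in polysomal RNA (left) and subpolysomal RNA (right) on the log2 scale, as eIF6 shRNA minus scramble with 95% confidence intervals from limma, coloured by collagen type. Filled circles passed an adjusted p of 0.05, and for Col11a1, which was not well above background in eIF6 shRNA cells, the circle is the fitted value rather than a measured size. The fibril-forming and type VI chains on the left reach from -2.15 (Col5a2) to -3.53 (Col1a2) apart from Col11a1, Col11a2 and Col27a1.

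The 3 largest polysomal decreases were those of Col1a2, Col1a1 and Col3a1, which are fibril-forming chains. Of 11 fibrillar genes on the array 9 were tested, 7 were lower and 1 was higher in both fractions, and their median change was -2.43 on polysomes and -1.86 in subpolysomal RNA. The 7 and the medians include Col11a1, which was not well above background on any eIF6 shRNA array. Col1a1 and Col1a2 encode the chains of type I collagen. The Col1a1 probe (mm9 chr11:94813115-94813174) gave log2 signals of 13.65, 13.63, 13.30 and 14.45 on the scramble polysomal arrays and 10.40, 10.27, 10.70 and 11.21 on the eIF6 shRNA polysomal arrays. In subpolysomal RNA the signals were 14.47, 14.34, 14.54 and 14.34 with scramble and 12.19, 12.52, 12.62 and 12.91 with eIF6 shRNA. All 4 eIF6 shRNA arrays lay below all 4 scramble arrays in either fraction. Col1a1 was 8.65-fold lower on polysomes (log2 change -3.11, SE 0.24, 95% CI -3.62 to -2.60, adjusted p = 1.84e-07) and 3.64-fold lower in subpolysomal RNA (-1.86, adjusted p = 4.34e-05).

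For Col1a2 (mm9 chr6:4490619-4490678) the polysomal signals were 16.41, 16.35, 16.23 and 17.08 with scramble and 12.63, 12.87, 12.90 and 13.56 with eIF6 shRNA. The subpolysomal signals were 16.02, 16.10, 16.13 and 16.01 and 14.48, 14.77, 14.93 and 15.21. Both fractions were separated between the shRNAs. On the quantile scale all 4 polysomal arrays were above all 4 subpolysomal arrays with scramble and below them with eIF6 shRNA, though with scaling to the 75th percentile the scramble difference was -0.30. Its decrease was 11.5-fold on polysomes (log2 change -3.53, SE 0.21, 95% CI -3.98 to -3.07, adjusted p = 1.48e-08) and 2.33-fold in subpolysomal RNA (adjusted p = 0.000695). That was the largest polysomal change of any tested chain, whereas its subpolysomal change was the smallest of the fibrillar chains called lower.

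Col3a1, the chain of type III collagen, which forms thin fibrils together with type I, had polysomal signals of 11.33, 11.31, 10.98 and 12.08 with scramble and 7.98, 8.21, 8.49 and 9.16 with eIF6 shRNA (mm9 chr1:45405589-45405648). Its subpolysomal signals were 11.88, 11.89, 11.88 and 11.36 and 9.95, 9.90, 10.36 and 10.54. The groups did not overlap in either fraction. The change was -2.96 on polysomes (SE 0.27, 7.79-fold lower, adjusted p = 9.38e-07) and -1.57 in subpolysomal RNA (2.97-fold, adjusted p = 0.000543).

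Type V collagen starts and limits the width of type I fibrils, and its 3 chains were all lower. Col5a1 (mm9 chr2:27892892-27892951) gave 10.65, 10.59, 10.40 and 11.18 on scramble polysomes and 7.67, 7.82, 8.07 and 8.38 on eIF6 shRNA polysomes. Below the polysomes the signals were 11.84, 11.81, 11.91 and 11.67 and 9.63, 9.56, 9.73 and 10.13. Every eIF6 shRNA array was lower than every scramble array of its fraction, by -2.72 on polysomes (SE 0.18, 6.59-fold, adjusted p = 4.09e-08) and -2.04 below them (4.12-fold, adjusted p = 1.20e-06). Col5a2 (mm9 chr1:45431204-45431263) had a dim probe, with 5.26, 5.00, 5.23 and 4.95 on scramble polysomes and 2.89, 2.35, 2.87 and 3.75 on eIF6 shRNA polysomes. Its subpolysomal signals were 5.91, 5.98, 5.87 and 6.08 and 3.46, 4.45, 3.84 and 3.83. The probe was well above background on all 8 scramble arrays but on only 3 of the 8 eIF6 shRNA arrays (2 polysomal and 1 subpolysomal), so that the fitted changes of -2.15 (SE 0.24, adjusted p = 1.07e-05) and -2.06 (adjusted p = 2.09e-05) rest partly on values near background. Col5a3 fell by 2.43 on polysomes (9.10 ± 0.40 to 6.67 ± 0.18, mean ± SD, n = 4, adjusted p = 5.14e-08) and fell by 1.93 in subpolysomal RNA (9.91 ± 0.03 to 7.97 ± 0.19, adjusted p = 8.43e-07).

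**Figure D2:**
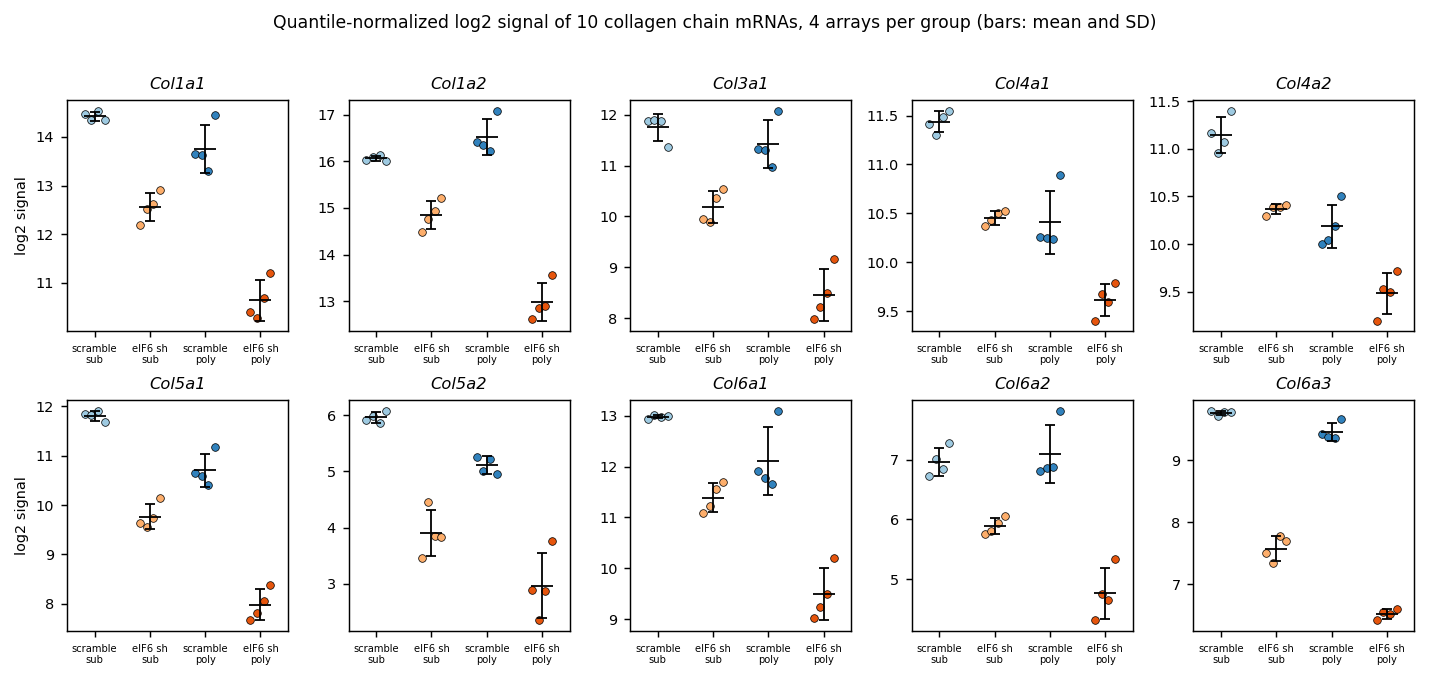
Quantile-normalized log2 signal of 10 collagen chain mRNAs on each of the 16 arrays, with the mean and SD of each group of 4 arrays (sub, subpolysomal RNA; poly, polysomal RNA; eIF6 sh, eIF6 shRNA). In all 10 panels the eIF6 shRNA arrays lie below the scramble arrays of the same fraction, and the vertical scale differs between panels.

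The other fibrillar chains were less uniform. Col11a1, a minor chain of cartilage-type fibrils, was well above background on 3 of 4 scramble polysomal arrays, on 1 of 4 scramble subpolysomal arrays and on none of the 8 eIF6 shRNA arrays. It was thus at least 1.16-fold higher on scramble polysomes (mean log2 signals 3.01 and 1.08, adjusted p = 2.15e-06), a lower bound set by the dimmest probe signal well above background on the eIF6 shRNA arrays, and in subpolysomal RNA (means 3.43 and 1.11, adjusted p = 5.00e-07) no bound above 1 could be given. Col11a2 changed by 0.23 (95% CI -0.16 to 0.62) on polysomes and was not called. Col27a1, a fibrillar chain outside the classical fibrils, was higher by 0.61 on polysomes (8.26 ± 0.20 to 8.87 ± 0.16, adjusted p = 0.000728) and by 0.54 in subpolysomal RNA (8.74 ± 0.12 to 9.28 ± 0.057, adjusted p = 0.00219), but with spike-in scaling the polysomal value was 0.14 (adjusted p = 0.865). Col2a1 and Col24a1 did not pass the filter, with 0 and 1 of 16 arrays well above background.

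Of 6 type VI genes on the array 3 were tested, and Col6a1, Col6a2 and Col6a3, which together form the common type VI molecule, were lower in both fractions (medians -2.62 on polysomes and -1.59 in subpolysomal RNA). The chains that can take the place of Col6a3 were not tested, since Col6a4, Col6a5 and Col6a6 were well above background on at most 1, 0 and 3 of 16 arrays. Col6a1 (mm9 chr10:76171538-76171597) gave 11.91, 11.77, 11.65 and 13.10 on scramble polysomes and 9.02, 9.23, 9.49 and 10.20 on eIF6 shRNA polysomes. Its subpolysomal signals were 12.94, 13.01, 12.98 and 12.99 and 11.08, 11.21, 11.55 and 11.70. Both fractions were separated, and the scramble polysomal array of replicate 4 was the highest of all 16. The change was -2.62 on polysomes (SE 0.29, 6.16-fold lower, adjusted p = 8.94e-06) and -1.59 in subpolysomal RNA (3.02-fold, adjusted p = 0.00106).

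Col6a2, measured as the mean of 2 probes, gave 6.80, 6.86, 6.88 and 7.82 on scramble polysomes and 4.31, 4.76, 4.65 and 5.33 on eIF6 shRNA polysomes. In subpolysomal RNA it gave 6.73, 7.01, 6.84 and 7.27 and 5.76, 5.81, 5.94 and 6.05. It was 5.02-fold lower on polysomes (log2 change -2.33, SE 0.23, adjusted p = 2.94e-06) and 2.10-fold lower in subpolysomal RNA (adjusted p = 0.00359). The size is uncertain, since its probes gave -2.84 and -1.82 on polysomes, and the second was well above background on only 2 of 4 polysomal and 1 of 4 subpolysomal eIF6 shRNA arrays. Col6a3 (mm9 chr1:92663663-92663722) encodes the longest of these chains. Its polysomal signals were 9.43, 9.37, 9.36 and 9.67 with scramble and 6.42, 6.55, 6.51 and 6.60 with eIF6 shRNA, and its subpolysomal signals were 9.80, 9.72, 9.78 and 9.78 and 7.50, 7.33, 7.77 and 7.69. The spread within a group was small against the distance between groups, so that the change of -2.94 (SE 0.1, 7.65-fold, 95% CI -3.15 to -2.72) had the lowest adjusted p of all chains, 6.53e-11, and the subpolysomal change was -2.19 (4.57-fold, adjusted p = 2.34e-09).

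The chains of type IV collagen behaved differently from each other. Of 6 genes 5 were tested, 2 were lower in both fractions and 3 were not called, with medians of -0.47 and -0.45. Col4a1 and Col4a2 encode the chains of the type IV molecule found in nearly all basement membranes. On polysomes Col4a1 (mm9 chr8:11199009-11199068) gave 10.26, 10.25, 10.24 and 10.89 with scramble and 9.40, 9.67, 9.59 and 9.79 with eIF6 shRNA. In subpolysomal RNA it gave 11.42, 11.30, 11.48 and 11.55 and 10.37, 10.43, 10.50 and 10.52. The groups were separated by less than for the fibrillar chains, with decreases of 1.73-fold (-0.79, SE 0.14, adjusted p = 0.000484) and 1.97-fold (-0.98, adjusted p = 9.07e-05). Col4a2 (mm9 chr8:11448840-11448899) gave 10.01, 10.04, 10.19 and 10.51 on scramble polysomes and 9.19, 9.52, 9.49 and 9.72 on eIF6 shRNA polysomes. Its subpolysomal signals were 11.17, 10.95, 11.07 and 11.40 and 10.30, 10.39, 10.39 and 10.41. Again no arrays overlapped, and the decreases were 1.63-fold (-0.70, SE 0.13, adjusted p = 0.00106) and 1.71-fold (-0.78, adjusted p = 0.000541).

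The chains of tissue-restricted basement membranes were not called in the main model, which has no slide term, uses all arrays and averages kept probes. On polysomes Col4a4 changed by 0.68 (95% CI 0.025 to 1.34, adjusted p = 0.142), Col4a5 by -0.47 (-0.91 to -0.043, adjusted p = 0.118) and Col4a6 by 0.42 (0.058 to 0.77, adjusted p = 0.0971). With slide as a block, Col4a5 was called lower on polysomes (adjusted p = 0.0402) and in subpolysomal RNA (-0.45, adjusted p = 0.0469), and Col4a6 was called higher in subpolysomal RNA (0.44, adjusted p = 0.0427). Without replicate 1, Col4a4 was called higher on polysomes (0.84, adjusted p = 0.0490). Of the 3 kept probes of Col4a4, only 1 was well above background on all arrays. The probes of Col4a6 gave 0.033 and 0.80 on polysomes, so that its mean covers a disagreement. Col4a3 did not pass, with 1 of 16 arrays well above background.

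Of 9 genes of fibril-associated chains 6 were tested, and 2 were lower on polysomes and 1 in subpolysomal RNA. Col12a1, whose product links fibrils to the surrounding matrix, went from 6.56 ± 0.20 to 5.12 ± 0.43 on polysomes (-1.43, 2.70-fold lower, adjusted p = 0.000127). In subpolysomal RNA it went from 7.22 ± 0.23 to 5.11 ± 0.33 (-2.12, 4.33-fold lower, adjusted p = 3.68e-06), so that unlike for type I and VI chains the value was further from 0 outside the polysomes. Col16a1 was lower on polysomes (6.99 ± 0.40 to 6.38 ± 0.22, -0.61, adjusted p = 0.0234), and the call was lost without replicate 1, 2 or 3, with spike-in scaling and with no detection filter. Col9a1, Col9a2, Col14a1 and Col20a1 were not called, with polysomal changes of 0.25, 0.51, 0.12 and -0.16. Col9a3, Col19a1 and Col22a1 were at 0 of 16 arrays.

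In the main model, Col15a1 was the only chain besides Col27a1 called higher on polysomes. Its product, type XV collagen, lies in basement membrane zones. Its log2 signal rose from 4.00 ± 0.25 to 4.76 ± 0.15 on polysomes (0.76, 1.69-fold, adjusted p = 0.00376) and from 4.20 ± 0.33 to 5.05 ± 0.21 in subpolysomal RNA (0.84, adjusted p = 0.00182), but with spike-in scaling the polysomal change was 0.22 and was not called (adjusted p = 0.785). Both calls were also lost with no detection filter (0.45, adjusted p = 0.121, and 0.28, adjusted p = 0.367). One of its 3 probes was kept. Col18a1, the related chain whose end fragment is endostatin, changed by 0.53 on polysomes (95% CI -0.026 to 1.08) and was not called, except without replicate 4 (0.48, adjusted p = 0.0404).

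Among the membrane-spanning chains, Col23a1 was higher in subpolysomal RNA (adjusted p = 0.00191). No scramble subpolysomal array and 2 of 4 eIF6 shRNA subpolysomal arrays were well above background for it, so the increase was at least 1.32-fold (mean log2 signals 2.69 and 3.83). The call was lost with no detection filter (adjusted p = 0.0653). On polysomes it changed by 0.14 (95% CI -0.34 to 0.63). Col25a1 was not called (-0.096, 95% CI -0.51 to 0.32), and Col13a1 and Col17a1 did not pass, with 2 and 0 of 16 arrays. Col7a1, the chain of anchoring fibrils, was lower on polysomes (9.92 ± 0.089 to 9.32 ± 0.17, 1.51-fold, adjusted p = 0.000291) and in subpolysomal RNA (1.30-fold, adjusted p = 0.0101), the last of which was lost without replicate 1 or 3. Col26a1 and the network chain Col8a2 were not called (fitted values of -0.31 and -0.55 on polysomes), and they were well above background on 4 and 8 of 16 arrays. Col8a1, Col10a1 and Col28a1 did not pass, with 1, 0 and 0 arrays.

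**Figure D3:**
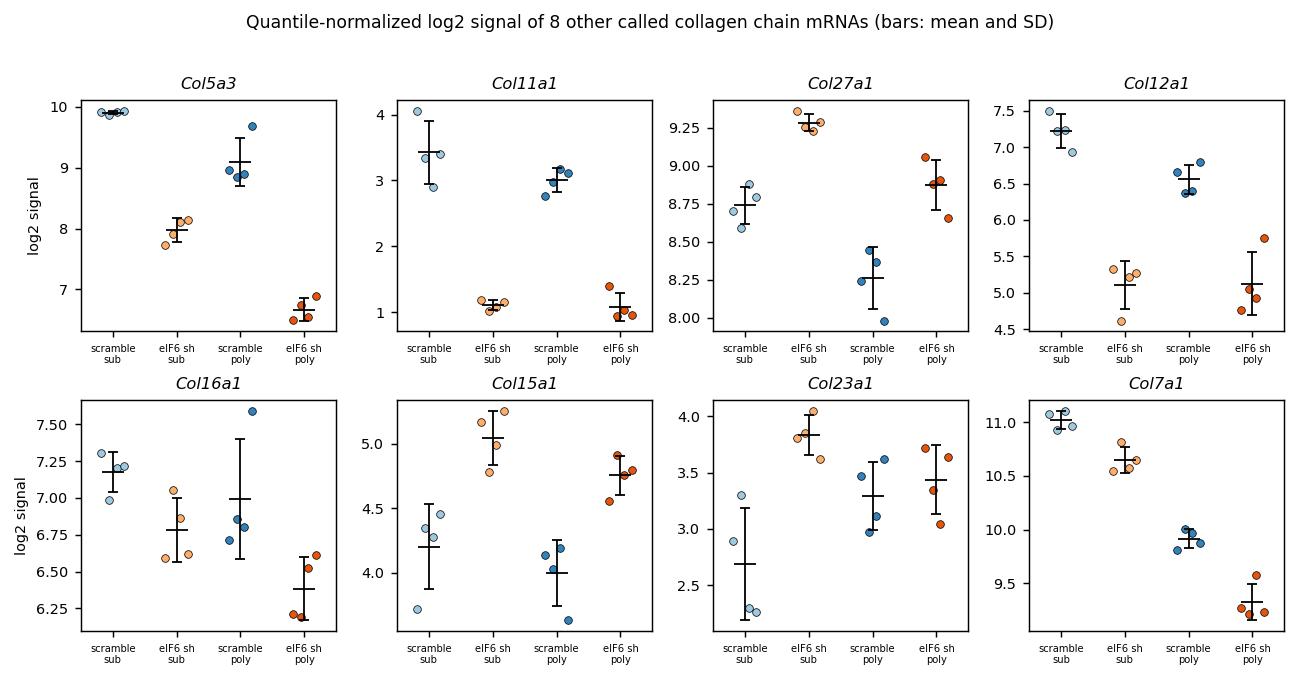
Log2 signal of the 8 other called collagen chain mRNAs on each array, with the mean and SD of each group of 4 arrays (labels as in the plot of 10 chains). Col5a3, Col11a1, Col12a1 and Col7a1 lie lower with eIF6 shRNA in both fractions, Col16a1 is separated on polysomes alone, Col15a1 and Col27a1 lie higher, and Col23a1 is separated in subpolysomal RNA alone.

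The markers of other cell types moved in part with the collagens. Of 14 stellate cell and fibroblast markers 11 were tested, and 10 of these were lower on polysomes (median -2.33) and 6 in subpolysomal RNA. That is 90.9% and 54.5% of them, against 10.7% and 12.3% of all genes. The markers were chosen with earlier results of these data known, so the shares are no test. Of the 14, 6 were well above background on all 16 arrays. Postn was so on 4, Pdgfra and Des on 8 each and Gli1 on 10, and their fitted changes rest partly on values near background. The log2 of the summed linear signal of the 11 tested markers lay between 16.74 and 17.17 on scramble polysomes and between 14.71 and 15.12 on eIF6 shRNA polysomes. In subpolysomal RNA it lay between 15.90 and 16.04 and between 15.13 and 15.50. Acta2 and Tagln were the brightest of these markers on scramble polysomes (mean log2 signals 15.98 and 14.75) and weigh most in the sum there. That sum therefore says little about the dimmer markers. Vim was the 1 tested marker not called on polysomes (13.93 and 13.55; limma, adjusted p = 0.314). Lrat, Reln and Lum, which mark stellate cells and fibroblasts, were at 0 of 16 arrays. Of the hepatocyte markers 0 were lower and 3 (Ttr, Afp and Cebpa) were higher on polysomes, the latter 27.3% of those tested against 11.1% of all genes. The log2 of the summed signal of all tested hepatocyte markers was 18.26 to 18.87 with scramble and 18.43 to 18.92 with eIF6 shRNA there. Most of that sum is Krt18 (mean log2 signals 18.17 and 18.32), so it says little about the other hepatocyte markers. Of 4 tested endothelial markers 0 were lower, of 6 tested macrophage and leukocyte markers 1 (Csf1r) was lower, and of 6 cholangiocyte markers 0 were lower on polysomes. The part of the fibroblast markers in the collagen changes was not tested. In RNA from a whole culture, fewer cells of a type and less RNA per cell cannot be told apart.

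Translational efficiency is the ratio of polysomal to subpolysomal signal, and its change is the difference between the changes of both fractions on the log2 scale. It asks whether a chain mRNA fell by more on polysomes than in subpolysomal RNA. Only Col1a2 and Col6a3 passed, both lower, and 0 chains were higher. That is 6.67% and 0% of the 30 chains, against 1.1% and 0.403% of all genes, and the median was -0.084 against 0.017. At an unadjusted p under 0.05, 8 chains were lower and 1 was higher, against 7.36% and 5.14% of all genes. On each slide, which held 1 array of every group, the difference was taken again, and 8 chains were below 0 on all 4 slides and 1 was above 0 on all 4, against 11.8% and 9.76% of all genes.

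For Col1a2 the efficiency change was -2.31 (SE 0.30, 95% CI -2.95 to -1.67, 4.96-fold, adjusted p = 0.000792). The values on the 4 slides were -2.36, -1.23, -3.01 and -2.64, all well below 0. For Col6a3 it was -0.74 (SE 0.14, 95% CI -1.04 to -0.44, 1.67-fold, adjusted p = 0.0140), and the slides gave -0.49, -0.61, -1.12 and -0.75. Spike-in scaling ended both calls, and no chain was called in efficiency on that scale, on which the median of all genes was -0.21. Leaving out any replicate number from all groups also ended the call of Col6a3 (adjusted p = 0.0542 to 0.194), while its value stayed between -0.85 and -0.66.

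Further chains had estimates of similar size with a wider spread and did not pass. Col3a1 changed by -1.39 (95% CI -2.20 to -0.59, adjusted p = 0.0915), Col1a1 by -1.25 (-1.97 to -0.53, adjusted p = 0.0915), Col6a2 by -1.25 (adjusted p = 0.0825) and Col6a1 by -1.03 (adjusted p = 0.305). Without the eIF6 shRNA polysomal array of replicate 4, Col1a1 (-1.44, adjusted p = 0.0364), Col3a1 (-1.62, adjusted p = 0.0281) and Col6a2 (-1.44, adjusted p = 0.0310) passed and 5 chains were called lower. The probes of Col6a2 gave -1.99 and -0.52 in efficiency, and the one with the smaller value was well above background on 11 of 16 arrays. Type V chains had -0.68 (Col5a1), -0.081 (Col5a2) and -0.50 (Col5a3), and the type IV chains 0.19 (Col4a1, 95% CI -0.22 to 0.60) and 0.074 (Col4a2, -0.32 to 0.47), none of them called. The one chain above 0 on all slides was Col12a1 (0.68, 95% CI 0.048 to 1.32, adjusted p = 0.354). By type, the median efficiency change was -0.50 for fibrillar chains, -1.03 for type VI and 0.074 for type IV.

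**Figure D4:**
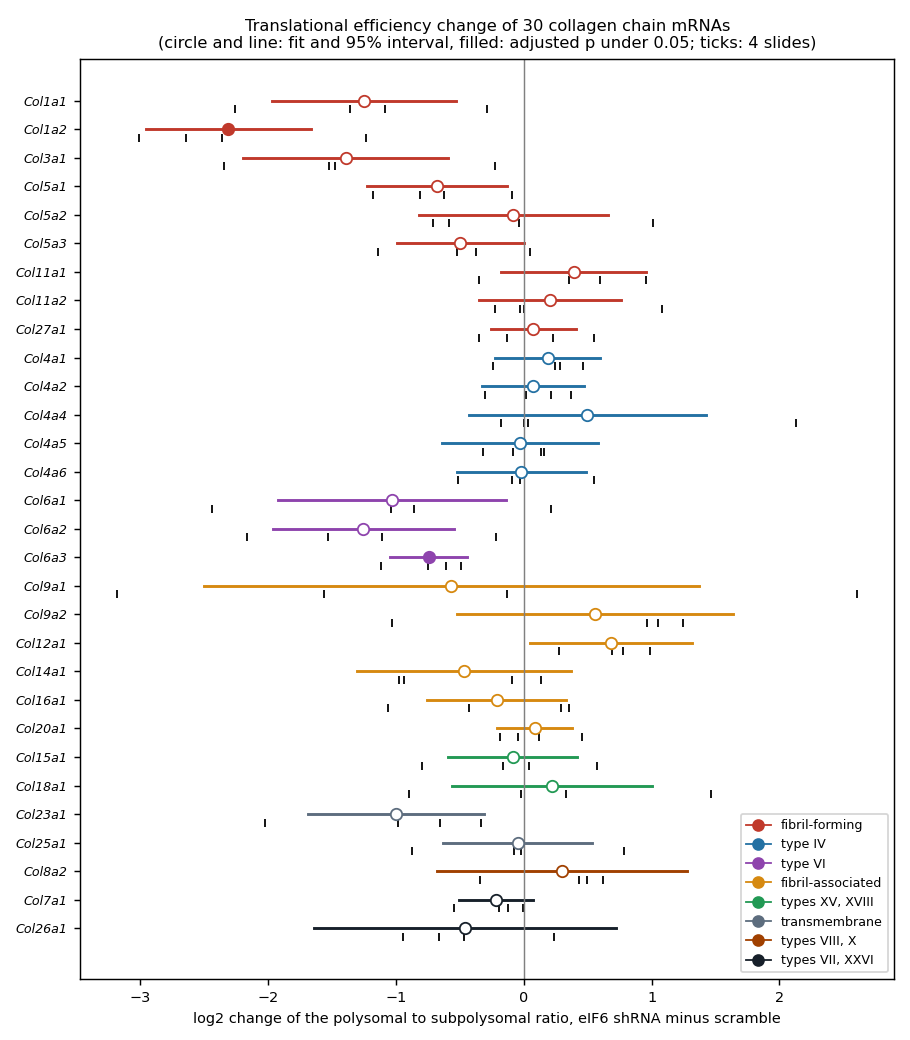
Translational efficiency change of the 30 tested collagen chain mRNAs on the log2 scale, with the limma estimate and its 95% interval as circle and line and the values taken within the 4 slides as ticks under each line. Filled circles (Col1a2 and Col6a3) passed an adjusted p of 0.05, and the type I, III and VI chains lie left of 0 while the type IV chains lie around it.

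Within each kind of cell, the polysomal signal was also set against the subpolysomal signal of the same shRNA. On the quantile scale 15 chains were lower and 1 was higher on polysomes in scramble cells (background 28.4% and 31.7% of all genes), and 17 were lower and 0 higher in eIF6 shRNA cells (background 28.7% and 32.1%), but the direction turned with the scaling, to 1 lower and 24 higher in scramble cells and 0 lower and 15 higher in eIF6 shRNA cells when each fraction was normalized by itself, and to 0 lower and 16 higher, and 0 lower and 4 higher, with spike-in scaling. The genes as a whole turned too. Normalized per fraction, 4.64% of all genes were lower and 81.5% higher on polysomes in scramble cells, and 4.34% and 79.5% in eIF6 shRNA cells. With spike-in scaling these shares were 2.02% and 68.8% in scramble cells and 2.47% and 57.8% in eIF6 shRNA cells. In scramble cells the median of the chains lay below that of all genes on each of these scales, at -0.43 against 0.035 (quantile), 0.97 against 1.38 (per fraction) and 1.09 against 1.52 (spike-in). A direction between the fractions can therefore not be given for the chains, and what follows is relative to the other genes of the quantile scale. Col1a2 lay at 0.45 in scramble cells (adjusted p = 0.0801) and at -1.86 in eIF6 shRNA cells (adjusted p = 2.92e-06). Col6a3 lay at -0.31 and -1.06, and Col1a1 at -0.67 and -1.92. In eIF6 shRNA cells the medians were -0.60 for the chains and 0.034 over all genes on the quantile scale.

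Collagen chains are hydroxylated and folded in the endoplasmic reticulum, exported in large carriers, trimmed by proteases outside the cell and cross-linked. The array named 49 genes of these steps and of collagen receptors and uptake, and 47 were tested. Since the lists were chosen with earlier results of these data known, the shares below describe these 47 genes and are no test. On polysomes 24 were lower and 4 higher (median -0.50), which is 51.1% and 8.51% of them against 10.7% and 11.1% of all genes. In subpolysomal RNA 17 were lower and 6 higher (median -0.21), or 36.2% and 12.8% against 12.3% and 11.8% of all genes. Of 14 tested chain-modifying enzymes 6 were lower and 0 higher on polysomes. Of 12 folding and export genes 6 were lower and 2 higher. Of 11 processing and cross-linking genes 9 were lower and 2 higher, with a median of -1.04, and of 10 receptors and uptake genes 3 were lower and 0 higher. In each of the 4 lists more genes were called lower than higher, and the receptors had the median nearest to 0 (-0.054).

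The largest decreases were those of Lox (-3.49, SE 0.17), which encodes lysyl oxidase, the enzyme that cross-links fibrils, and Crtap (-2.57, SE 0.15), a part of the complex that hydroxylates prolines of the chains. The largest increases were those of Mia2 (1.38, SE 0.15), a gene of the export machinery at the endoplasmic reticulum, and Loxl2 (0.51, SE 0.17, adjusted p = 0.0409), a relative of Lox. In subpolysomal RNA Lox changed by -1.49, Crtap by -1.25 and Mia2 by 0.83. In translational efficiency 5 of the 47 genes were lower (10.6%, against 1.1% of all genes) and 0 were higher. The 5, named after their values were seen, were Lox (-2.00, adjusted p = 0.000485), Crtap (-1.31, adjusted p = 0.00444), Fkbp10 (-1.10, adjusted p = 0.00673), Ppib (-0.81, adjusted p = 0.0383) and Leprel2 (-0.73, adjusted p = 0.0321). Fkbp10 and Ppib encode prolyl isomerases that help the chains fold, and Leprel2 is a prolyl hydroxylase gene. Adamts3 was at 0 of 16 arrays.

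**Figure D5:**
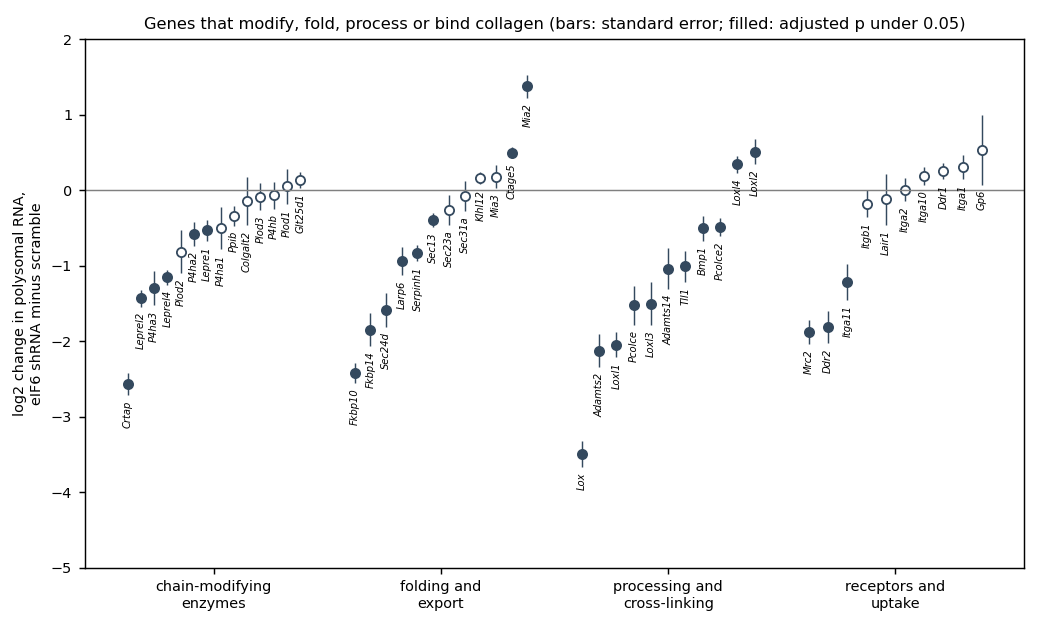
Log2 change in polysomal RNA, eIF6 shRNA minus scramble, of the 47 tested genes that modify, fold, export, process, cross-link or bind collagen, sorted within each of the 4 lists, with bars for the standard error. Filled circles passed an adjusted p of 0.05, with Lox at -3.49 the lowest and Mia2 at 1.38 the highest.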

How the data were processed

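RNA from sucrose gradients of AML12 cells was hybridized on 16 one-colour arrays (4 groups of 4, with each group on all 4 slides). The intensity of each of 44397 spots, as the authors deposited it, was background-subtracted by the scanner software and not normalized between arrays. The authors also deposited log2 values that they had quantile normalized, and these had correlations of 0.994 to 1.000 with the log2 of the intensities. The labels name Feature Extraction 10.7.7.1, and the file headers 10.7.3.1. Groups and replicate numbers come from the labels, and columns of fold changes or p-values were not used.

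Spots with outlier flags were left out (82 missing probe values), spots of a probe were averaged, and a probe was kept if 2 or more arrays of any group had it well above background. Log2 intensities were quantile normalized and averaged over the kept probes of a gene name. In limma 3.58.1 (R 4.3.3, data.table version 1.17.8), 4 group means were fitted and 5 contrasts tested, with Benjamini-Hochberg adjustment over 19367 genes and a threshold of 0.05. A gene with missing values on an array was fitted on the others. The procedure was run on simulated independent arrays, with changes added to the eIF6 shRNA polysomal group alone. That run does not cover slide effects or changes in both fractions. P-values measure the spread between these arrays, whose number limits the precision. No saturated spot fell on a collagen probe.

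A called change of a gene with no kept probe well above background on any array of one of the groups compared was given only as a bound. Other dim probes are given by their fitted values, with the number of arrays well above background for those the text singles out. The bound sets the mean of the brighter group against the mean of the higher of the lowest signal well above background on each array and the probe's own signal. Values on every array are given for chains of types I, III, V (alpha1 and alpha2), IV (alpha1 and alpha2) and VI (alpha1 and alpha2) and for any other chain called in translational efficiency. The other chains are given by type. Of the pathway lists, the 2 largest called polysomal changes in each direction are named. The collagen genes, the lists and the markers were chosen with earlier results of these data known. Gene names and probe positions (mm9) are those of the files, and promoter windows are RefSeq's for GRCm38.p6. Whether a probe lies in a coding or an untranslated exon was not analysed here.

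Alternatives were scaling to spike-in probes or to the 75th percentile, quantile normalization per fraction, normexp (offset 50), 3 other detection filters, the brightest probe, the authors' table, slide or replicate number as a block, and each replicate number left out. Leaving out each array singly was chosen after seeing the data. Python 3.11.15 with matplotlib 3.10.9 drew the figures.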

Additional observations from a re-analysis of the deposited data

Results flagged for a closer look

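The effect of the eIF6 shRNA differed between the fractions for 2 chains, by the interaction of shRNA and fraction in limma. For Col1a2 the polysomal change minus the subpolysomal change was -2.31 (adjusted p = 0.000792), and for Col6a3 it was -0.74 (adjusted p = 0.0140).

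In 8 of the 72 groups examined for the called or named chains, 1 of the 4 arrays lay far from the others by Dixon's criterion, which chance alone meets in about 1 in 20 groups. On the scramble polysomal array of replicate 4, Col4a1 (10.89), Col5a3 (9.69), Col6a2 (7.82) and Col16a1 (7.59) were far above the other arrays of the group on the log2 scale. The scramble subpolysomal array of replicate 4 was low for Col3a1 (11.36). Among eIF6 shRNA arrays, replicate 1 was low for Col4a2 (10.30) and replicate 2 low for Col12a1 (4.62) in subpolysomal RNA, and replicate 3 was high for Col7a1 (9.57) on polysomes. Without the scramble polysomal array of replicate 4, the polysomal comparison called 15 chains lower and 4 higher. The part of that array in these values was not tested further.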

How the results depend on the processing

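The number of chains called lower on polysomes stayed within 1.5 times of 15 under all 31 alternatives (11 to 16), and the named chains kept their direction in the polysomal and in the subpolysomal comparison under all of them that gave a value (Col5a2 has none with the filter that asks for all 16 arrays). The chains called higher on polysomes were 0 with spike-in scaling, 1 with no filter, 1 with the filter that asks for all 16 arrays, and 4 without the scramble polysomal array of replicate 4. They were 3 with the brightest probe, without replicate 1 or without replicate 4, and 2 under the other alternatives. In subpolysomal RNA spike-in scaling gave 9 lower and 0 higher, and no filter gave 16 lower and 1 higher. The other alternatives gave 13 to 15 lower and 2 to 4 higher there. In translational efficiency the chains called lower were 5 with the 75th percentile, 0 with spike-in scaling, 4 with normalization per fraction, 4 with normexp, 1 to 4 when a replicate number was left out of all groups (1 without replicate 1, 2 or 3), and 2 to 5 when a single array was left out (5 without the eIF6 shRNA polysomal array of replicate 4). They were 3 with the brightest probe or with either stricter filter, and 4 with replicate number as a block. Efficiency values near 0 changed sign: Col4a1 to -0.090 with spike-in scaling, Col4a2 to -0.0018 with the 75th percentile and -0.18 with spike-in scaling, and Col5a2 to 0.21 with normexp, 0.090 with no filter and 0.10 with the authors' table. With arrays or replicates left out, Col4a2 lay between -0.011 and 0.18 and Col5a2 between -0.45 and 0.26 (without replicate 2). The cause was not tested.

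The difference between polysomal and subpolysomal signal depended on the scaling by its construction, since each scaling sets the 2 fractions against each other in its own way. Chains called in scramble cells were 0 lower and 16 higher with spike-in scaling (68.8% of all genes higher), 1 lower and 24 higher with normalization per fraction (81.5% of all genes higher), and 0 higher with the 75th percentile, normexp or the stricter filters. They were 9 to 17 lower and 0 to 2 higher when arrays or replicates were left out. In eIF6 shRNA cells they were 0 lower and 4 higher with spike-in scaling (57.8% of all genes higher), 0 lower and 15 higher per fraction (79.5%), and 1 higher with the authors' table or without the subpolysomal array of replicate 2. With spike-in scaling the scramble difference turned to 1.23 (Col1a1), 1.58 (Col3a1), 0.85 (Col4a1), 0.89 (Col4a2), 0.78 (Col5a1), 0.42 (Col5a2), 1.07 (Col6a1) and 1.46 (Col6a3), and per fraction to 1.09, 1.47, 0.73, 0.77, 0.67, 0.26, 0.95 and 1.33 for the same chains in this order. With the 75th percentile Col1a2 turned to -0.30 and Col6a2 to -0.30, and with arrays or replicates left out Col6a2 lay between -0.12 (without the scramble polysomal array of replicate 4) and 0.23. In eIF6 shRNA cells the difference turned to 0.76 (Col4a1), 0.71 (Col4a2) and 0.25 (Col6a3) with spike-in scaling, and to 0.85 (Col4a1), 0.79 (Col4a2), 0.044 (Col6a2) and 0.34 (Col6a3) per fraction.

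The deviations of same-numbered arrays from their group means had correlations of -0.16 to 0.41, which were not above 0.1 in every pair. For arrays of the same slide the correlations were -0.065 to 0.25. Whether the replicate numbers mark a pairing cannot be told from these values. The main model has neither a replicate term nor a slide term. With the replicate number as a block, 15 chains were lower and 2 higher on polysomes, 15 and 3 in subpolysomal RNA, 4 and 0 in translational efficiency, 15 and 2 between the fractions in scramble cells and 17 and 0 in eIF6 shRNA cells. For dim chains such as Col5a2, Col11a1 and Col23a1, signal close to background limits the size that can be given.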
